A study of Mus musculus with 16 samples.

Results

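RNA of aortic and pulmonary valves, cut by laser from the hearts of C57BL/6 mouse embryos at stage E14.5, was described here by 1 property of the libraries: the level of Mylpf, the regulatory light chain of fast skeletal muscle myosin. The libraries were chosen by that measured value. Those with a deposited Mylpf value below 100 are 6 of the 16, and the other 10 have a value of at least 100. The 6, called Mylpf-low below, are mutant aortic 4, wild-type aortic 2 and 4, mutant pulmonary 4, and wild-type pulmonary 2 and 4. The mutants carry a floxed Jag1 allele together with Nkx2.5-Cre, a recombinase expressed from the cardiac gene Nkx2-5, so deletion is limited to cells with Nkx2-5 activity and their descendants, while the label of the wild-type embryos names no allele. Each genotype has 4 aortic and 4 pulmonary libraries, which come from 5 litters. The aortic libraries form 1 library batch and the pulmonary libraries another, and the effects of valve and of batch cannot be told apart. Because a measured value chose the 6 libraries, every difference between them and the other 10 is a description with no test.

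Outflow valves grow from endocardial cushions, in which endocardial cells line a core of mesenchyme that secretes matrix. The Notch ligand Jag1 and the receptor Notch1 act between endocardium and mesenchyme during that growth. The valve leaflets contain no skeletal muscle. Its fibres use a set of light chains, troponins and heavy chains that differ from those of heart muscle. Pax7, Myod1 and Myog act in its formation, from stem cells to differentiation. Genes of that programme are used below as markers of skeletal muscle, though some muscle genes, such as Actc1 and Myl4, are active in heart muscle too. Where in the cut tissue they were expressed was not tested.

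Mylpf (ENSMUSG00000030672, chromosome 7, 127208890 to 127214298 on the plus strand of GRCm38, protein-coding) was 0.569 in mutant aortic 4 and 7.16 in mutant pulmonary 4. Its values were 23.2 and 1.75 in wild-type aortic 2 and 4, and 0.801 and 0.734 in wild-type pulmonary 2 and 4. In the other 10 libraries it ran from 278 to 899.5 with a median of 407. Values are normalised counts as deposited, with a scaling that the sources used here do not state. They are compared below between libraries, which assumes that this scaling holds, but not between genes, since they are not divided by gene length. The Mylpf values nearest the threshold were 23.2 (wild-type aortic 2) and 278 (mutant aortic 2), so no library lay close to it. In 4 of the 6 libraries Mylpf was at or below 1.75, while wild-type aortic 2 and mutant pulmonary 4 kept a measurable signal. The label of muscle-free tissue therefore does not hold fully for wild-type aortic 2, in which Myh3 was 11.7, Myl1 7.52 and Myog 3.13. Nor does it hold fully for mutant pulmonary 4, by its Mylpf value of 7.16. In that library Myh3, Myl1 and Myog were 0, while the fast troponin C Tnnc2 was 1.73. In wild-type pulmonary 2 the slow troponin T Tnnt1 was 11.8, the highest of the Mylpf-low libraries, and Myl1 was 3.47.

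Tbx20, a T-box transcription factor of endocardial cushions and heart muscle, ran the other way. It was 1032, 1439 and 1744 (lowest, median, highest) in the Mylpf-low libraries, against 98.0, 336 and 976 in the other 10, with no overlap. The difference of mean log2(value + 1), Mylpf-low minus others, was 2.25, with 1.89 in the pulmonary and 2.62 in the aortic libraries. The other 10 were not alike in Tbx20: 5 of them had 98.0 to 123, and 5 had 549 to 976. Without the 5 lowest, a choice made after the values were seen, the Tbx20 difference was 0.86. A smaller difference is built into that choice.

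**Figure D1:**
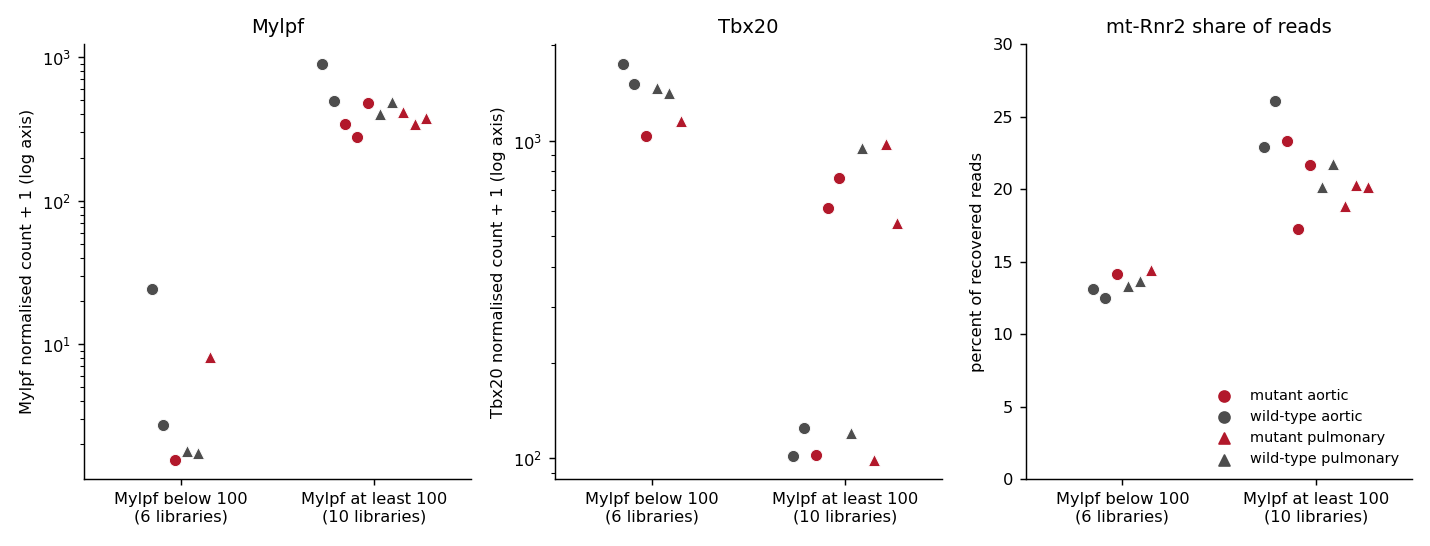
Mylpf and Tbx20 (normalised count + 1, log axes) and the share of recovered reads from mt-Rnr2 (percent), with 1 point per library, the 6 Mylpf-low libraries left of the other 10, mutants in red and wild type in grey. Mylpf is at most 23.2 on the left and at least 278 on the right, Tbx20 at least 1032 on the left and at most 976 on the right, and mt-Rnr2 12.5% to 14.46% on the left and 17.3% to 26.1% on the right.

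The promoters of muscle genes at the far end of the comparison are shown because these genes differed together, with the promoter of Tbx20 from the opposite end. Each window covers the 250 bases before and 50 after the gene's RefSeq start in GRCm38, read 5′ to 3′ on the gene's strand. Capitals mark the E-box CANNTG, the letters that myogenic factors such as Myog are known to bind. Mylpf is at chr7:127211358-127211657 (plus), Myog at chr1:134289754-134290053 (plus), Acta1 at chr8:123894726-123895025 (minus), Myh3 at chr11:67078050-67078349 (plus) and Tbx20 at chr9:24774254-24774553 (minus).
Mylpf: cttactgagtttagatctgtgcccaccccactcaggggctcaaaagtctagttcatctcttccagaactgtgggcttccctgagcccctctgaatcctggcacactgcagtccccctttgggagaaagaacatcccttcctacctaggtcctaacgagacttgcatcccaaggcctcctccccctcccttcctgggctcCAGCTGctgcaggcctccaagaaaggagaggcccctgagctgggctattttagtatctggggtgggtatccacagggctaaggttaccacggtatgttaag
Myog: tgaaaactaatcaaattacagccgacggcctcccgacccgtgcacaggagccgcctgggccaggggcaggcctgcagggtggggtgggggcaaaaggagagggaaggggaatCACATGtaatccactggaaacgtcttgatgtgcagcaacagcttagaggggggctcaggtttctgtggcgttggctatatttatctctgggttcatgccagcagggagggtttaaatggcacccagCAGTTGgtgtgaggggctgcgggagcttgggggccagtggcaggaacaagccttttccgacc
Acta1: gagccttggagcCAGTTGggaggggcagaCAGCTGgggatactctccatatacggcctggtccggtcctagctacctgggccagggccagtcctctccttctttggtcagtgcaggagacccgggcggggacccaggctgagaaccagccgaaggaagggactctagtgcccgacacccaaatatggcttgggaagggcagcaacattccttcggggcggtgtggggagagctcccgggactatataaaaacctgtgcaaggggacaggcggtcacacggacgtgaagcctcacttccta
Myh3: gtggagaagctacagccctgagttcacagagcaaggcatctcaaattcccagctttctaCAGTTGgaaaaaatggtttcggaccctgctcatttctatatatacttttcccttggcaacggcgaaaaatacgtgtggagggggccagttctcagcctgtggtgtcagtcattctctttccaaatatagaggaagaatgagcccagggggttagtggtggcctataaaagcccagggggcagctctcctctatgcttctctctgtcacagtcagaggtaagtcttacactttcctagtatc
Tbx20: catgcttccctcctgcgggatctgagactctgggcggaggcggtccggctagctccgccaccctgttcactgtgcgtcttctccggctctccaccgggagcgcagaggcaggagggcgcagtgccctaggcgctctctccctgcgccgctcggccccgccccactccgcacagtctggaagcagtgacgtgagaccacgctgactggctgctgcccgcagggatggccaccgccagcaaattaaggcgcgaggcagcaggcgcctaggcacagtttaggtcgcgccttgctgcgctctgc

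The Mylpf window held 1 match to CANNTG, Myog 2, Acta1 2, Myh3 1 and Tbx20 0. CANNTG reads the same on both strands, and the form CAGCTG is one of its cases, so their counts overlap. Over the 24 promoters matched of 33 skeletal muscle genes (Mylpf and the members of both muscle lists that were lower in all Mylpf-low libraries), 22 held CANNTG (91.7%), against 72.1% of all 27025 promoters of that length. CAGCTG was in 14 of the 24 (58.3%), against 16.1% of all promoters. The MEF2 box was in 4 of the 24 (16.7%), against 3.26% of all promoters. Searched on both strands, TATAAA was in 7 of the 24 (29.2%), against 14.2% of all promoters, and GATAA in 4 (16.7%), against 25.8%. Of the 12 promoters matched of 19 valve, matrix and endothelial genes that were higher in all Mylpf-low libraries, 8 held CANNTG (66.7%), 2 held CAGCTG (16.7%), 0 the MEF2 box, 3 TATAAA (25%) and 3 GATAA (25%). A match is a run of letters and not a shown binding site. The 33 genes were listed as muscle genes, passed the split and include Mylpf, which made it. Their motif shares describe muscle promoters and are no evidence about the split.

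Recovered reads were 4.98, 6.78 and 7.49 M (lowest, median, highest) in the Mylpf-low libraries, against 4.56, 7.65 and 8.68 M in the other 10. The mitochondrial ribosomal RNA mt-Rnr2 took 12.5%, 13.5% and 14.46% of the reads in the Mylpf-low libraries, against 17.3%, 21.0% and 26.1% in the others, with no overlap. The 10 most abundant genes took 22.2% to 24.7% against 26.7% to 36.4%. Erythroid transcripts differed more between single libraries than between the sets: the beta globin Hbb-bs was 359, 1435 and 16810 against 868, 2039 and 16659, and its highest values were in wild-type aortic 2 and wild-type pulmonary 1. The part of these differences in the results below was not tested.

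Mylpf-low libraries were 2 of 8 mutant and 4 of 8 wild-type libraries, and 3 of 8 pulmonary and 3 of 8 aortic libraries. By litter the sets were less mixed. All 4 libraries of litters JGH66 and JGJ68 were Mylpf-low, and all 8 of litters JNC10 and JND8 were not. Litter JND7 gave 2 of each, with both mutant libraries among the other 10 and both wild-type libraries Mylpf-low. Litter and Mylpf level therefore cannot be told apart for 12 of the 16 libraries.

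A gene is called higher or lower below where the 6 Mylpf-low libraries did not overlap the other 10 and the means of log2(value + 1) differed by at least 1, a 2-fold difference. Of 13962 genes other than Mylpf, 258 were higher (1.85%) and 305 lower (2.18%) in the Mylpf-low libraries. Those shares follow from a split that was made on a muscle gene and are the base against which the lists are read. At any size of difference, 363 genes (2.6%) lay above and 513 (3.67%) below without overlap. The median difference over all 13962 genes was 0.0021, and its 5th and 95th percentiles were -1.29 and 1.22. The lower side was steeper: its 12 leading genes lay between -6.91 and -5.18, and the 12 leading higher genes between 2.16 and 2.60. Without wild-type aortic 2 the counts were 330 higher (2.36%) and 408 lower (2.92%).

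The contractile proteins of fetal and fast skeletal muscle were lower. Of 30 measured genes of that list, 21 were lower and 0 higher, with a median difference of -3.39 and with all 30 below 0. Myh3, the embryonic myosin heavy chain, was 0, 0.210 and 11.7 in the Mylpf-low libraries, against 73.9, 195 and 433 in the others (difference -6.91). Acta1, the actin of skeletal muscle fibres, was 0, 0.376 and 5.17 against 93.2, 146 and 421 (-6.49). The highest Mylpf-low value of both genes was in wild-type aortic 2, and the next was 0.267 for Myh3 and 0.734 for Acta1. The fast troponin C Tnnc2 was at most 2.04 in the Mylpf-low libraries, against at least 51.4 in the others (-5.39), the slow troponin T Tnnt1 at most 11.8 against at least 75.9 (-5.39), and the fast troponin T Tnnt3 at most 2.98 against at least 32.6 (-5.18). Both fast and slow fibre genes were thus on the lower side. The perinatal heavy chain Myh8 was at most 10.2 against at least 27.4 (-4.43), and Ckm, the muscle creatine kinase, at most 0.940 against at least 3.64 (-3.46). Without wild-type aortic 2 the list had 23 lower genes and a median of -3.54.

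The light chains of skeletal and of heart muscle differed below 0, some with and some without overlap. Besides Mylpf itself, 3 of 10 were lower: Myl1, the fast skeletal essential light chain (0, 0.255 and 7.52 against 95.3, 144 and 328, difference -6.31), Myl4, the light chain of fetal skeletal and atrial muscle (3.41, 6.10 and 43.1 against 87.2, 157 and 295, -4.12), and Myl6b (at most 2.11 against at least 3.92, -2.86). The cardiac light chains overlapped between the sets, though their means lay far apart. The ventricular Myl2 was 0.175, 1.95 and 20.7 against 6.72, 24.4 and 169 (-2.81), and Myl3 was 0.734, 3.88 and 27.9 against 6.31, 21.7 and 162 (-2.23). The atrial Myl7 was 0.367, 3.24 and 17.1 against 4.91, 22.6 and 215 (-2.89). The highest Mylpf-low value of Myl2, Myl3 and Myl7 (20.7, 27.9 and 17.1) was again in wild-type aortic 2. That value lay above the median of the other 10 for Myl3, and below the median but well inside their range for Myl2 and Myl7. Without that library Myl7 was at most 3.47 against at least 4.91. Myl2 and Myl3 still overlapped, with 8.01 in wild-type pulmonary 2 against at least 6.72, and 7.29 in mutant pulmonary 4 against at least 6.31. The non-muscle and smooth muscle light chains were close: Myl6 differed by 0.02, Myl12a by -0.01, Myl9 by -0.73 and Myl12b by -0.74. Myl12a and Myl12b are near-identical copies between which RSEM, the counting tool named by the submitters, shares reads, so their separate values are uncertain.

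**Figure D2:**
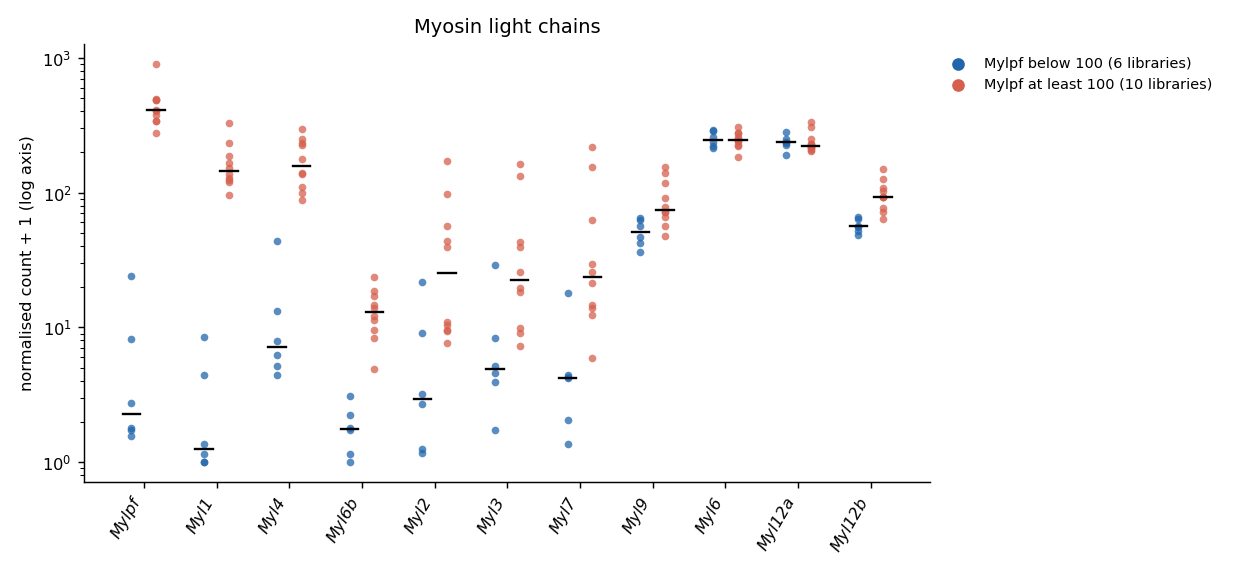
Myosin light chains in each library (normalised count + 1, log axis), with the 6 Mylpf-low libraries in blue left of the other 10 in red for each gene, and black bars at the medians. Myl1, Myl4 and Myl6b do not overlap between the sets, Myl2, Myl3 and Myl7 overlap, and Myl6 and Myl12a lie at the same level in both.

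Regulators of muscle formation were lower with the fibres. Of 16 measured genes of the myogenic and neuromuscular junction list, 11 were lower and 0 higher (median -2.68, or -2.43 with a gene at 0 in all 6 libraries set to its counting limit). Pax7, the factor of muscle stem cells, was at most 0.470 in the Mylpf-low libraries and 0 in 5 of them, against 5.94 to 55.7 in the others (-3.77). The determination factor Myod1 was at most 0.367 against 8.54 to 18.7 (-3.52). Myog, which drives differentiation, was 0 in 5 libraries and 3.13 in wild-type aortic 2, against 23.4, 34.4 and 101 in the others (-4.997). Mymk, the membrane protein needed for myoblast fusion, was at most 0.313 against 9.52 to 45.1 (-4.21). The acetylcholine receptor subunit Chrnd had 0 reads in all 6 Mylpf-low libraries, which allows 0.367 to 0.526 normalised counts per library at a limit of 3 reads, against 1.61 to 14.4 in the others. The list thus holds stem cell, fusion and junction genes on the same side. Mstn, which encodes the growth inhibitor myostatin, was the only member of the 16 with a positive difference: 56.8, 78.1 and 107 against 5.19, 22.4 and 58.6 (2.01, overlapping). Mstn was singled out after its value was seen.

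Sarcomere genes that fetal skeletal and heart muscle share were lower in 12 of 27 (0 higher, median -2.17). Actc1, the cardiac actin that fetal skeletal muscle also uses, was 54.5, 87.4 and 173 against 639, 969 and 2151 (-3.38). Des, which encodes the intermediate filament desmin, was 6.54, 9.38 and 28.5 against 34.9, 62.2 and 105 (-2.32). Genes of heart muscle itself did not separate in the same way: 1 of 17 was lower, Sln, an inhibitor of the calcium pump that skeletal muscle uses too (at most 5.17 against at least 8.77, -4.25), and the list's median was -0.98. The cardiac heavy chain Myh6 was 0.612, 3.27 and 20.2 against 0.420, 10.5 and 112 (-1.62). The mean log2 level of the cardiomyocyte list was 3.83 in wild-type aortic 2, and without that library 3 of 17 genes were lower.

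Factors of cushion and valve mesenchyme were on the other side. Of 32 measured genes, 27 differed above 0, 5 were higher and 2 lower (median 0.85). Gata4, a zinc-finger factor of cushion cells, was 256, 323 and 357 in the Mylpf-low libraries, against 20.1, 88.0 and 250.4 in the others (2.12). Hand2, a basic helix-loop-helix factor of the outflow tract, was 72.3, 91.3 and 115 against 6.65, 27.1 and 49.1 (1.90). Smad6, an intracellular inhibitor of BMP signalling, was at least 29.9 against at most 28.0 (1.49), and the growth factor Tgfb2 at least 235 against at most 204 (1.48). Adamts19, a secreted protease of valve tissue, had the largest difference of the list at 2.59 but overlapped, with 121, 232 and 296 against 7.85, 42.1 and 136. The chondrogenic factor Sox9, which cushions also express, differed by 0.30, with 107 to 192 lying inside the 62.6 to 249.6 range of the other libraries. The lower members were Aldh1a2, the retinaldehyde dehydrogenase that makes retinoic acid (0, 0.548 and 3.92 against 4.86, 12.4 and 31.8, -2.87), and Penk, which encodes proenkephalin (1.56 to 3.46 against 6.17 to 20.9, -1.74). They are on the list as valve genes and lay with the muscle genes in these libraries.

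The single genes with the largest positive differences were of several kinds. Nipal4, a magnesium transporter homologue, was 80.7, 92.7 and 141 against 0.853, 20.9 and 56.3 (2.60). Wnt16, a secreted Wnt ligand, was 26.2, 38.0 and 54.4 against 0.468, 6.397 and 20.2 (2.59). Bmp6, a ligand of the BMP pathway that the endocardium expresses, was 34.7, 40.8 and 63.4 against 0, 11.8 and 34.1 (2.35), so the sets met almost end to end. Gata5, an endocardial zinc-finger factor, was 50.9, 69.0 and 86.3 against 2.22, 17.5 and 33.6 (2.28). Sall3, a zinc-finger factor, was 117, 150.1 and 163 against 12.3, 26.1 and 95.2 (2.24). Galnt14, Esyt3, Pkhd1l1 and Gvin1 had differences of 2.26, 2.22, 2.16 and 2.54. Gvin1 has near-identical copies in the genome, so its value is uncertain.

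Endothelial and endocardial genes were higher as a list: 23 of 24 differed above 0, 4 were higher and 0 lower (median 1.45). Tek, the angiopoietin receptor, was 197, 263 and 332 against 15.7, 69.4 and 175 (2.21). Flt1, a VEGF receptor, was 328, 396 and 562 against 22.2, 111 and 316 (2.13), and Ramp2, a co-receptor for adrenomedullin, was 236, 273 and 308 against 33.7, 75.5 and 188 (1.75). Nfatc1, the factor that marks valve endocardium, was 261, 330 and 512 against 66.0, 157 and 255 (1.295). The sets of Nfatc1 and Flt1 nearly touched. Ptprb, an endothelial phosphatase outside the list, was 823, 1090.0 and 1376 against 52.7, 297 and 621 (2.24). Emcn, which encodes the sialoglycoprotein endomucin of veins and endocardium, was the list's exception at -0.73, with 2.94, 7.40 and 15.2 against 4.56, 15.9 and 22.6.

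Matrix genes were higher in 10 of 40 and lower in 2 (median 1.07). Fbln2, a cushion glycoprotein, was 416, 452 and 554 against 29.6, 122 and 365 (2.06). Hapln1, which links hyaluronan to proteoglycans, was 595, 680 and 918 against 69.3, 216 and 469 (1.88). Vcan, the proteoglycan versican of the cushions, was 3290.5, 3887 and 4628 against 355, 1198 and 3281 (1.87), so its sets touched. Fibronectin Fn1 was 1393, 1894 and 3659 against 297, 713 and 1382 (1.70), and Fbn1, fibrillin-1, 480 to 839 against 85.8 to 442 (1.85). The general collagens Col1a1 and Col1a2 differed by 0.24 and 0.37 and overlapped, while Col5a2 was higher (395 to 511 against 93.5 to 308, 1.33). The lower members were the small leucine-rich proteoglycans Ogn (0.618, 5.08 and 11.5 against 23.6, 73.4 and 172, -3.78) and Aspn (2.70, 6.69 and 9.65 against 10.7, 39.1 and 68.3, -2.22). Another of that family, Lum, was higher (422 to 669 against 78.3 to 403, 1.68), so this family was found on both sides.

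The higher side was smaller without the libraries poorest in Tbx20. Those 5 were picked by Tbx20, a member of the valve mesenchyme list, after its values were seen. Smaller differences of that list, and of genes that vary with Tbx20, are therefore partly built in. With the 5 libraries of 98.0 to 123 left out, 103 genes were higher (0.738% of all), of which 77 were among the 258. On the other side 319 were lower (2.28% of all), of which 277 were among the 305. The list medians were then 0.51 for valve mesenchyme (1 higher, 2 lower), 0.45 for matrix (2 and 2) and 0.69 for endothelium (2 and 0), against -3.41 for skeletal contractile genes (23 lower). Fewer cells of a type and less RNA per cell cannot be told apart in bulk tissue, and a normalised count is relative to all other RNA in the library.

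**Figure D3:**
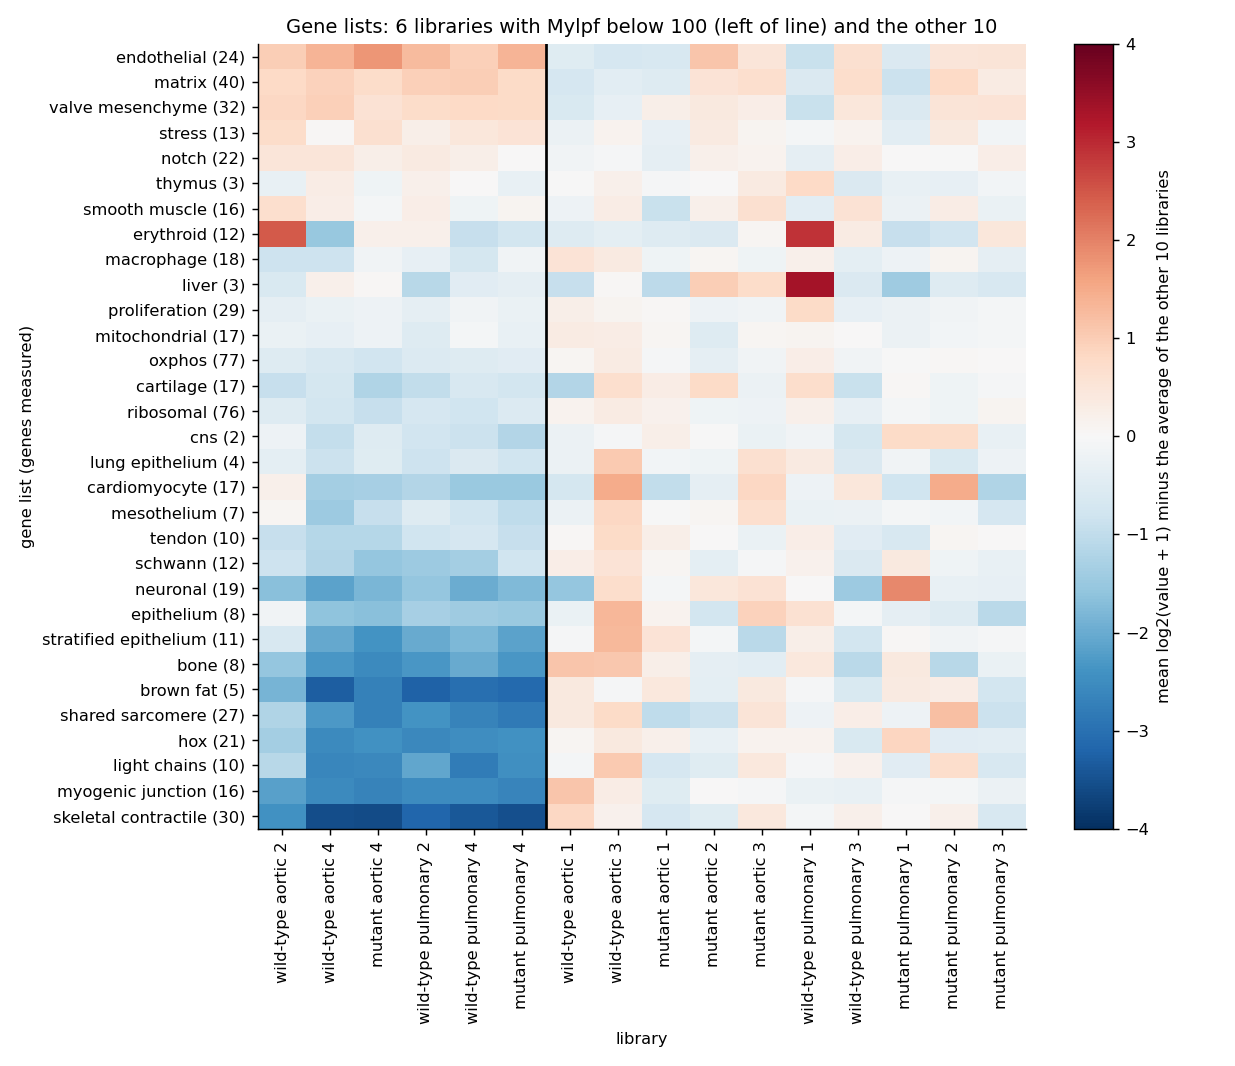
Mean log2(value + 1) of each gene list in each library minus its average in the other 10 libraries (colour scale from -4 to 4, cut at both ends), with the 6 Mylpf-low libraries left of the line and lists ordered by their median difference. Endothelial, matrix and valve mesenchyme lists (medians 1.45, 1.07 and 0.85) stand at the top, skeletal contractile genes (-3.39) at the bottom, and wild-type aortic 2 is the palest of the Mylpf-low columns in the lower rows.

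Notch pathway genes were measured for 22 members, of which 3 were higher and 0 lower (median 0.31). The receptor Notch1 was 195, 289 and 304 against 38.4, 88.2 and 177 (1.76). Hey2, a transcriptional repressor that Notch induces, was 73.0, 93.2 and 127 against 10.6, 32.0 and 65.0 (1.69). Adam10, the protease that cleaves Notch receptors on the cell surface, was 136 to 185 against 48.5 to 124 (1.00). Hes1 and Nrarp, also Notch-induced, had differences of -0.85 and -1.06 and overlapped, and Hey1 and Heyl had -0.20 and -0.09, so the targets did not share a sign. Without the 5 libraries poorest in Tbx20, 0 of the 22 were higher, where 0.738% of all genes were.

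Jag1, the targeted gene (ENSMUSG00000027276), differed by 0.24 between the sets and overlapped fully: 1.85, 17.1 and 54.7 in the Mylpf-low libraries against 3.78, 11.9 and 39.7 in the others. Within the Mylpf-low libraries it was 10.2 in mutant aortic 4, against 54.7 and 18.8 in wild-type aortic 2 and 4, and 1.85 in mutant pulmonary 4, against 19.2 and 15.4 in wild-type pulmonary 2 and 4. The mutants had the lower value in both valves there. In the limma fit over all libraries Jag1 was lower in mutants by -1.68 (SE 0.32, adjusted p = 0.218), which did not pass the threshold of 0.05; DESeq2 on recovered reads gave -1.76 with an adjusted p of 0.0134.

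Hox genes, which pattern the body axis and are active from the hindbrain backwards, were lower in 9 of 21 and higher in 0 (median -2.34, with all 21 below 0). Summed over the 12 measured genes of paralog groups 1 to 6, the level was 2.00, 5.03 and 22.9 in the Mylpf-low libraries, against 36.8, 75.01 and 128 in the others. Summed over the 9 genes of paralog groups 7 to 13 it was 0, 0.509 and 17.7, against 34.1, 89.3 and 180.2. Both sums separated the sets, so anterior and posterior paralogs lay on the same side. Hoxa10 was at most 0.313 against 2.22 to 53.5 (-3.57), and Hoxa7 was 0 in 5 libraries and 3.13 in wild-type aortic 2, against 5.37 to 24.9 (-3.63). Hoxd8 was 0 in the same 5 libraries and 3.60 in wild-type aortic 2, against 6.49 to 25.0 (-3.78). Hoxc4, at the anterior end, was at most 2.04 against 7.18 to 21.3 (-3.42). The highest Mylpf-low value of these genes was that of wild-type aortic 2, and without it 14 of the 21 were lower.

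**Figure D4:**
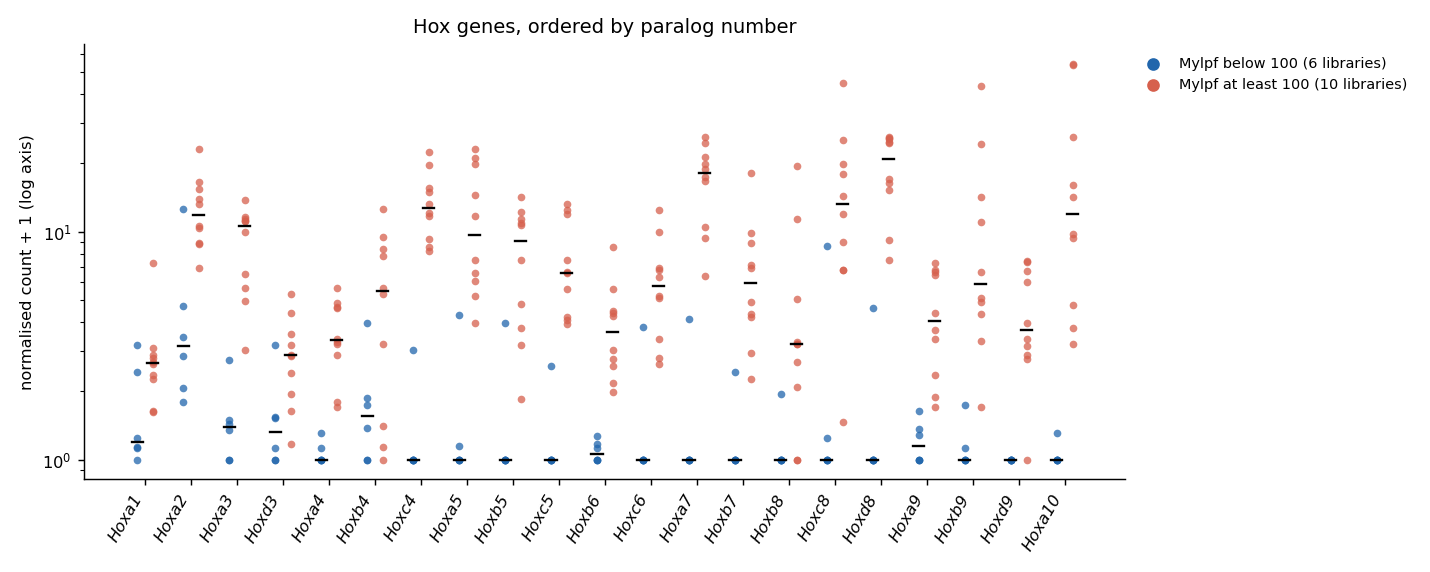
Hox genes in each library (normalised count + 1, log axis), ordered by paralog number, with the 6 Mylpf-low libraries in blue left of the other 10 in red and black bars at the medians. Most blue points lie at 1, that is at 0 reads, and the single raised blue point of Hoxa7, Hoxd8 and Hoxc4 is wild-type aortic 2.

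Other tissue markers were lower in part. Of 19 measured neuronal genes, 4 were lower and 0 higher (median -1.26): Dcx, a microtubule protein of migrating neurons, was 0, 0.397 and 10.03 against 60.9, 195 and 609 (-6.34), and Snap25, Nefl and Gap43 followed at -3.85, -3.32 and -1.52. The pan-neuronal Tubb3 and Stmn2 were measured in both sets with medians of 21.8 and 37.1 against 23.8 and 50.2, with differences of -0.25 and -0.32, and both overlapped. Of 12 Schwann cell genes 0 were lower (median -1.21).

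Genes of bone, tendon, cartilage, layered epithelium and fat were lower in part as well. Ibsp, a bone matrix protein, was at most 2.04 against 7.83 to 114 (-4.47), and it and Phex were the 2 lower genes of 8 bone genes (median -2.04). Tnmd, the tenomodulin of tendon, had 0 reads in all 6 libraries against 4.03 to 20.6, and with Col11a1 it made 2 of 10 tendon genes. Matn1, a cartilage matrix protein, was at most 0.124 against 0.631 to 29.8 (-2.61), and Col11a1 was 19.3 to 43.1 against 57.2 to 205 (-1.76). Of 17 cartilage genes 2 were lower and 1 higher, the growth factor receptor Fgfr3 (58.0 to 73.9 against 10.05 to 55.9, 1.37). Trp63, a transcription factor of layered epithelia, was at most 2.35 against 6.05 to 44.0 (-3.88) and was the only lower gene of 11 in that list (median -1.79), while 0 of 8 general epithelial genes were lower (median -1.41). Ebf2, a factor of brown fat precursors, was 0 in 5 libraries and 1.88 in wild-type aortic 2, against 32.4 to 146 (-5.73), and it and the fatty acid carrier Fabp4 (-3.31) were the 2 lower of 5 brown fat genes. Tbx15 (-5.18), a T-box factor of limb and dermal mesenchyme, and Agtr2 (-6.31), an angiotensin receptor, were lower too, with at most 6.81 and 7.05 against at least 26.3 and 63.1, as was Tceal7 (at most 3.92 against at least 38.8, -5.25). Of 7 mesothelial genes 1 was lower, Tbx18 (-1.96).

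Genes of blood, immune, dividing and organ-specific cells mostly overlapped. All 12 erythroid genes overlapped (median -0.13), as did all 29 cell cycle genes (median -0.21), 4 lung (-0.88), 3 liver (-0.21) and 3 thymus genes (0.27). Of 18 macrophage genes 1 was lower, F13a1, the A chain of coagulation factor XIII (at most 2.67 against 5.79 to 33.8, -3.26), while the receptor Csf1r differed by 0.79 and overlapped. Of 16 smooth muscle genes 1 was higher, the integrin Itga8 (56.6 to 85.6 against 9.003 to 55.7, 1.48), and the median was 0.21. Of 2 central nervous system genes 1 was lower, En1, a homeobox factor (at most 0.313 against 0.927 to 4.21). All 13 immediate-early and heat-shock genes overlapped (median 0.59). The erythroid median changed sign under 7 of 30 alternatives, the liver median under 6, the macrophage median under 2, and the smooth muscle and thymus medians under 1 each.

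Ribosomal protein genes differed by less than the muscle lists but in 1 direction. Their mean log2 level was 7.83 to 8.23 in the Mylpf-low libraries, against 8.41 to 9.08 in the others, with no overlap. Of 76, 75 differed below 0 and 3 were lower (median -0.73); Rpl32, for example, was 532, 733 and 815 against 1095, 1448 and 1925 (-1.02). Processed copies of these genes share reads with them, so single values are uncertain. Of 77 nuclear genes of oxidative phosphorylation 76 differed below 0 and 3 were lower (median -0.56): the striated muscle subunits Cox6a2 (-3.02) and Cox8b (-2.11), and Uqcrfs1 of complex III (-1.04). Mitochondrially encoded genes had a median of -0.25 with 0 of 17 past the 2-fold limit, and mt-Rnr2 differed by -0.83 without overlap.

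Differences were also taken within each valve. Over 13962 genes the Mylpf-low minus other difference in the pulmonary libraries (3 and 5) correlated with that in the aortic libraries (3 and 5) at r = 0.797, a description across genes that share libraries with their neighbours. Both valves were split by the same Mylpf rule, and litters JNC10, JND7 and JND8 gave libraries of both. The correlation is therefore no independent replication. Myh3 differed by -7.39 in the pulmonary and -6.42 in the aortic libraries, and Wnt16 by 2.11 and 3.06.

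**Figure D5:**
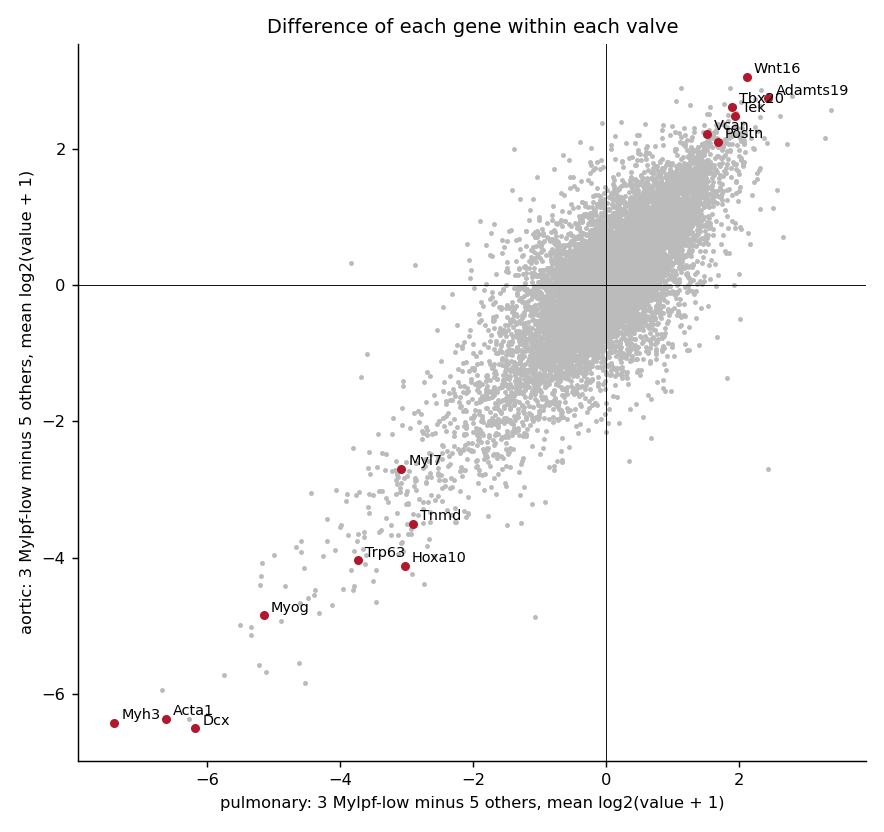
Difference of mean log2(value + 1), 3 Mylpf-low minus 5 other libraries, in the pulmonary valve (x axis) and in the aortic valve (y axis), with 1 point per gene and named genes in red. Myh3, Acta1 and Dcx lie at the far lower left and Wnt16, Adamts19 and Tbx20 at the upper right, and the 13962 points correlate at r = 0.797.

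The labelled comparisons were fitted over all 16 libraries with limma. Mylpf itself differed by 1.34 between mutant and wild-type libraries over both valves (SE 1.63, adjusted p = 1.0) and by -0.38 between pulmonary and aortic libraries (SE 1.63), and Tbx20 by -0.17 (SE 0.76) and 0.39 (SE 0.76), each within its error. Of 13963 genes, 0 (0%) passed an adjusted p of 0.05 in limma for mutant against wild type over both valves, in the pulmonary or in the aortic valve, for pulmonary against aortic valve, or for the interaction of both. At an unadjusted p under 0.05 limma gave 389, 437, 196, 47 and 264 genes in that order. Each count is below a 0.05 share of the 13963 genes, which chance alone would give, so none is an excess. At an adjusted p of 0.05 edgeR called 0 in each, and DESeq2 called 5, 2, 0, 0 and 0. Since limma called 0 genes, none of the 563 genes apart could be among its calls. The 305 lower genes had a median mutant minus wild-type difference of 0.40 (282 above 0), against 0.01 over all genes, and the 258 higher genes had -0.05; 4 of the 6 Mylpf-low libraries are wild type. With the Mylpf-low property as a covariate, limma called 2 genes (0.0143%) for mutant against wild type over both valves, Rps2-ps10 and Gm9825, and 1 (0.00716%) for pulmonary against aortic, Rpl10a. None of the 3 is among the 563. With that covariate the medians were -0.20 for the lower and 0.33 for the higher genes, so the sign of both turned. The covariate is the split that chose these genes, and it is unequal between genotypes. A shift of these medians is therefore built in, and neither pair measures an effect of genotype.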

How the data were processed

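RNA was measured in 16 libraries, 4 for each genotype and valve. Per the labels' protocols, valves were cut by laser microdissection, RNA purified on PicoPure columns was amplified with an Ovation V2 kit before TruSeq library preparation; the submitters' processing notes name CASAVA 1.8.2, cutadapt 1.6, FastQC, RSEM 1.2.3 and build GRCm38. The deposited values are a normalised signal per gene and library; the sources used here do not state the authors' scaling or filter. Within each library the values are whole multiples of 1 step: 100% gave whole reads at a tolerance of 0.05, and edgeR on those reads called 0 genes in each labelled comparison. Depth was 4.56 to 8.68 M reads. Reads were amplified without stated molecular identifiers, so limits from a count of 0 (3 reads) cover counting error only. A symbol was found for 13780 of 13964 genes and 184 keep their ID only.

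Values were used as log2(value + 1) for 13963 genes that reached 1 in 4 or more libraries; differences on this scale understate those of low genes. No p-value is given for the split by Mylpf at 100, because a measured value made it and libraries of 1 litter are not independent; planned Fisher's exact tests of its share by genotype and by valve were dropped for that reason. Labelled comparisons used limma 3.58.1 in R 4.3.3 (trend, two-sided, Benjamini-Hochberg), with edgeR 4.0.16 and DESeq2 1.42.0 on recovered reads as alternatives and a check on simulated data; the rest used Python 3.11.15 with scipy 1.17.1. No label names the embryo, and libraries of different valves may share 1, which would make p-values over both valves too small. Replicates of a group correlated at r = 0.790 to 0.932, and none of 24 pairs agreed within sampling noise.

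The members and gene lists were chosen with earlier results of these data known. The rule for naming genes took Mylpf, Tbx20 and Jag1, the 12 largest non-overlapping differences in each direction without predicted genes, up to 4 non-overlapping members of each list (otherwise 2 of the highest level) and all myosin light chains. It also asked for genes correlated with Mylpf or Tbx20 and for the smallest p of each fit; these were left out, because the libraries form separate clusters and no gene passed. Other genes, such as Mstn, Emcn, Sox9 and Tubb3, were chosen after their values were seen. Same-numbered libraries of 1 valve share a litter per the labels, so numbers pair mutant and wild type; their deviations correlated at 0.48, 0.01, 0.20 and 0.64 in the aortic and at 0.49, -0.03, 0.07 and 0.45 in the pulmonary valve. Promoters came from RefSeq (GRCm38). Alternatives were other pseudocounts, filters, scalings, thresholds, tools, litter blocks, subsets and leaving out each library.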

Additional observations from a re-analysis of the deposited data

Results flagged for a closer look

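Single libraries stood far from the rest of their set by Dixon's test at its 95% value in 20 of 214 groups of values; chance alone gives about 1 in 20, and no explanation was weighed. Within the Mylpf-low set, wild-type aortic 2 was the highest for Jag1 (54.7, next 19.2) and for the mean log2 level of skeletal contractile genes (1.95), myogenic and junction genes (1.27), shared sarcomere genes (3.88), cardiomyocyte genes (3.83), stratified epithelium (2.66), general epithelium (1.85) and Hox genes (1.32). Among mutant pulmonary libraries, number 4, the Mylpf-low one, was the lowest for myogenic and junction genes (0.791), stratified epithelium (1.18) and oxidative phosphorylation (5.62). In the same group number 3 was the highest for thymus (1.34), erythroid (6.77) and Notch genes (4.88). Mutant aortic 1 was the lowest of its group for matrix genes (6.41). Among the other 10 libraries, wild-type aortic 1 was the highest for myogenic and junction genes (4.54), and wild-type pulmonary 1 for liver (5.63, also within its own group), erythroid (9.22) and cell cycle genes (7.25).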

How the results depend on the processing

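The counts of higher and lower genes depend on the filter and on which libraries are compared. With a mean value of at least 10 required, fewer genes were compared, and 231 were higher and 192 lower. Their shares were 2.44% and 2.03% of the genes compared, against 1.85% and 2.18% without that limit. With a Mylpf threshold of 10, which moves wild-type aortic 2, 118 were higher (0.845%). With 300, which moves mutant aortic 2, 156 were higher (1.12%) and 82 lower (0.587%). Fewer libraries let more genes separate: 932 higher and 803 lower within the aortic valve, 570 and 582 within the pulmonary, 872 and 916 within mutants, 977 and 661 within wild type. Without the 5 libraries poorest in Tbx20, 103 were higher (0.738%). Leaving out 1 library gave 242 to 397 higher (1.73% to 2.84%, with 397 without wild-type pulmonary 3) and 302 to 408 lower (2.16% to 2.92%). Over 30 alternatives the skeletal contractile median ran from -4.02 to -1.73, the endothelial from 0.69 to 1.70 and the matrix from 0.45 to 1.46. No named gene's called difference reversed.

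For mutant against wild type over both valves, limma with the replicate block (litter pairs) called 2 genes, Rps2-ps10 and Gm9825 (adjusted p = 0.0302 each), while edgeR on recovered reads with the same block called 0 (smallest adjusted p = 0.187); limma with a replicate block of 5 litters called 1 and with Mylpf-low as a covariate 2, and DESeq2 called 5 (Cd83 and Hmga1b higher, Cd74, Jag1 and Lmcd1 lower). Leaving out 1 library gave 0 to 3 (3 without wild-type aortic 4: Rps2-ps10, Gm9825 and Hmga1b; 2 without wild-type pulmonary 2: Rps2-ps10 and Gm9825). Reads of these copies of Rps2 and Hmga1 may belong to their parent genes, so the values are uncertain. In the pulmonary valve DESeq2 called 2 (Cd83 and Slain1, higher). Both were 0 in all wild-type pulmonary libraries and at most 6.30 and 7.25 in the mutant ones, so these calls rest on low values. In the aortic valve leaving out wild-type aortic 4 gave 2 (Rps2-ps10 and Gm9825) and any other library 0. For pulmonary against aortic the covariate gave 1 (Rpl10a, lower). Leaving out 1 library gave 0 calls in the pulmonary valve, between the valves and for the interaction. The litter block changed no other call, and pulmonary against aortic could not be fitted with litter pairs. The cause was not tested. Limits: the split rests on a measured value, 12 of 16 libraries share their side with their litter, and genes near 0 are limited to about 0.5 normalised counts by depth.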
